A study of Homo sapiens with 4 samples.

Results

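The mRNAs of the proteasome were examined among the RNAs that co-precipitated with KIAA1429 in a human hepatocellular carcinoma (HCC) cell line. Of 13300 gene names in the RNA immunoprecipitation sequencing (RIP-seq) data, 48 began with PSMA to PSMG followed by a digit. Of these, 45 were proteasome genes: 16 of the core particle (PSMA1 to PSMA7 and PSMB1 to PSMB9), 20 of the regulatory particle (PSMC1 to PSMC6 and PSMD1 to PSMD14), the activators PSME1 to PSME4, the inhibitor PSMF1 and the assembly chaperones PSMG1 to PSMG4. The other 3 names were kept out of every group: the antisense RNAs PSMB8-AS1 and PSMD5-AS1, and PSMC3IP, a recombination factor named for an interaction with PSMC3. PSMA8, PSMB10 and PSMB11 were not among the names listed.

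The 4 libraries came from HCCLM3, an established HCC cell line, whose RNA-protein complexes were captured with an antibody against KIAA1429 in 2 libraries (KIAA1429 RIP) and with normal IgG in 2 (IgG RIP, the controls, which give the background of the method). KIAA1429, also named VIRMA, is the scaffold of the complex that writes N6-methyladenosine (m6A) on mRNA. The comparison asks which mRNAs were recovered with KIAA1429 above the IgG background. Nothing in the labels says that the 2 replicates of a group came from separate cultures, so each p-value measures the spread between these libraries, which may be technical. All libraries were from the same unmodified cell line with no drug or gene transfer named, and poly(A) RNA was selected after the capture.

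Levels were in FPKM, fragments scaled to transcript length and to the mapped fragments of the library, and the FPKM of all listed transcripts of a gene name were added to a gene total. The FPKM of a library summed to between 295573 and 340300, and from 26.6% to 32.2% of the 34975 transcripts were listed at 0. The read depth behind a value is unknown, since FPKM keeps no counts. Of the 12 hepatocyte genes checked against the label, 11 were listed with summed gene totals between 414 and 507 FPKM, albumin and alpha-fetoprotein among them, whereas HNF4A was at 1.11 FPKM or less. Of 5 epithelial genes, 4 were listed, summing to between 1290 and 1712 FPKM, nearly all of it from the keratins KRT8, KRT18 and KRT19. EPCAM was at 3.21 FPKM or less, and CDH1 was not listed. Of 8 genes of other cell types, CD68 and LYZ were listed, with sums between 38.6 and 87.0 FPKM. VIRMA, which encodes the antibody's target, had gene totals of 18.0 and 10.01 FPKM with IgG against 18.2 and 11.6 FPKM with the KIAA1429 antibody.

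The 26S proteasome degrades proteins that carry ubiquitin chains. Its core particle is a barrel of alpha and beta subunit rings, with the peptidase sites in 3 of the beta subunits, and its regulatory particle recognises, unfolds and feeds in the substrate through a ring of ATPases (PSMC) and a set of non-ATPase subunits (PSMD). The genes are expressed in every cell and are largely under common transcriptional control, and proteasome inhibitors are established cancer drugs.

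None of the 45 proteasome mRNAs passed the test for enrichment with KIAA1429 or for depletion, yet 36 of them had a positive fitted log2 fold change. A call required a log2 fold change beyond 1 and a Benjamini-Hochberg adjusted p under 0.05 in limma, fitted to log2(gene total + 1) over the 11361 gene totals with a mean of at least 1 FPKM. All 45 proteasome genes passed that filter and were above 0 in every library, and each of them lay above the median of the gene totals tested. Of the 45 proteasome genes 0 were called, and of all gene totals 0, or 0.0%, were called. The study reported transcripts enriched with KIAA1429 by DESeq, a test that could not be run on FPKM. The absence of calls here therefore does not show that no RNA was enriched. At an unadjusted limma p under 0.05 there were 2 proteasome genes, PSME1 on the higher side, beside 3.17% of all gene totals, and PSME4 on the lower side, beside 1.43% (4.59% in either direction). The adjusted limma p of the members ran from 0.997 to 0.999. Their fitted log2 fold changes ran from -0.95 to 0.97 with standard errors between 0.27 and 0.72.

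A positive fitted fold change was found for 36 of 45 members, or 80.0%, whereas 51.4% of all gene totals had one. The median log2 fold change of the members was 0.28 and that of all gene totals was 0.02. With the libraries scaled to a common median, the median of the members was 0.27 and that of all gene totals 0.01, and with quantile normalization they were 0.19 and -0.02. Both KIAA1429 RIP libraries were above both IgG RIP libraries for 15 members (33.3%), beside 16.6% of all gene totals. Both were below for 7 members (15.6%), beside 15.2% of all gene totals. The groups overlapped for the other 23. Leaving out a library moved these counts in the members and in the background alike, since a single library is easier to stand apart from. Without IgG RIP replicate 1 the number of members above was 31, beside 40.2% of all gene totals, and without KIAA1429 RIP replicate 2 it was 27, beside 34.1%. Without IgG RIP replicate 2 the number of members below was 12, beside 37.8% of all gene totals. In a bulk lysate, an RNA carried by fewer cells and less of it per cell cannot be told apart.

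**Figure D1:**
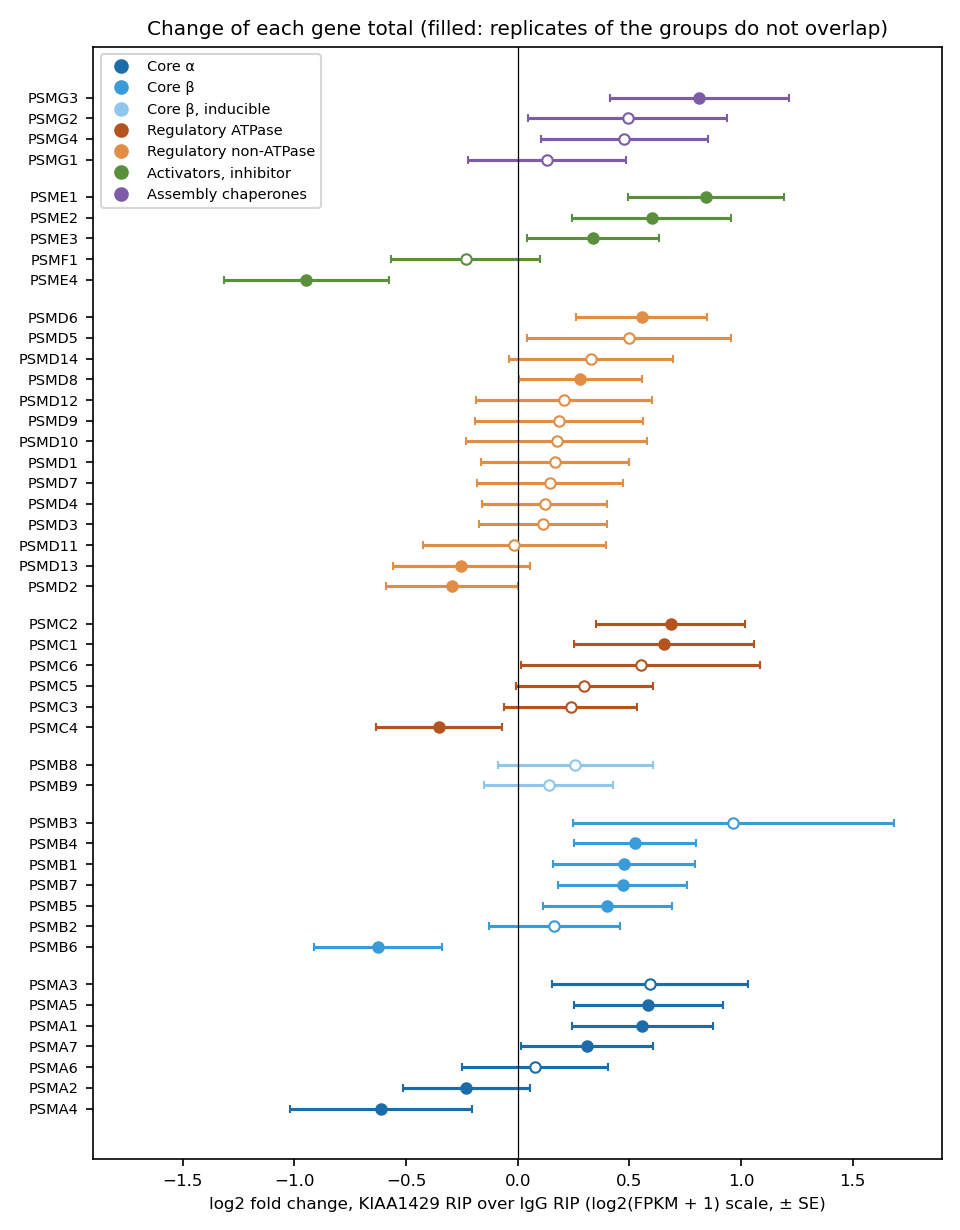
Fitted log2 fold change of each proteasome gene total, KIAA1429 RIP over IgG RIP, on the log2(FPKM + 1) scale, with bars of 1 standard error (limma, 2 libraries per group). Genes are grouped by role, and filled points mark the 22 genes whose groups do not overlap. Most points lie to the right of 0, and PSME4, PSMB6 and PSMA4 lie farthest to the left.

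Among the 7 alpha subunits, which form the outer rings of the barrel and its gate, 5 had a positive and 2 a negative fitted fold change, with a median of 0.31 on the log2 scale. PSMA7 (chr20:60711791-60718496, minus strand, GRCh37) had the highest mean of all proteasome genes, with 114 and 84.8 FPKM in the controls, compared with 115 and 129 FPKM in KIAA1429 RIP. The replicates did not overlap, but IgG RIP replicate 1 was nearly as high as KIAA1429 RIP replicate 1, and the log2 fold change was 0.31 ± 0.30 (SE). In KIAA1429 RIP replicate 1, 36.1 FPKM came from PSMA7-205, a processed transcript without a coding sequence, at 4.16 FPKM or less in every other library. The main coding transcript, PSMA7-203, overlapped between groups. It was at 108.6 and 81.4 FPKM with IgG against 75.2 and 126.8 FPKM with KIAA1429. PSMA1 stood at 33.7 and 42.3 FPKM in the IgG libraries against 66.3 and 47.3 FPKM with KIAA1429. PSMA5 (chr1:109941653-109969049, minus strand) stood at 19.4 and 21.3 FPKM with IgG against 38.0 and 25.1 FPKM with the KIAA1429 antibody. Both were highest in KIAA1429 RIP replicate 1, and their log2 fold changes were 0.56 ± 0.32 and 0.59 ± 0.33. A processed transcript, PSMA5-203, made up 53.7% of the mean of PSMA5 in IgG RIP and 56.9% in KIAA1429 RIP. The coding transcript PSMA5-201 was at 8.54 and 10.3 FPKM with IgG against 14.4 and 12.8 FPKM with KIAA1429. PSMA3 had the highest fitted fold change of the alpha subunits, 0.59 ± 0.44, but its groups overlapped, with 12.03 and 23.6 FPKM in the controls, compared with 33.9 and 19.9 FPKM in KIAA1429 RIP.

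PSMA4 (chr15:78832747-78844761, plus strand) went the other way, with 13.6 and 10.8 FPKM in the IgG libraries against 9.68 and 5.88 FPKM with KIAA1429. It was the least abundant alpha subunit in 3 of the 4 libraries, and its log2 fold change was -0.61 ± 0.41. When only its most abundant transcript was used the value was 0.15, so the direction rested on the summing of transcripts. PSMA2 was lower in both KIAA1429 RIP libraries, at 52.9 and 44.5 FPKM, than in the IgG RIP libraries, at 60.5 and 53.9 FPKM. The gap between the nearest libraries of the 2 groups was smaller than either within-group gap, and the log2 fold change was -0.23 ± 0.28.

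The 7 constitutive beta subunits had a median log2 fold change of 0.47, and 6 of them were above 0. Both KIAA1429 RIP libraries were higher for PSMB1, PSMB4, PSMB5 and PSMB7. PSMB4 (chr1:151372010-151374420, plus strand), a structural subunit of the inner ring, had the smallest standard error of these. It was at 68.2 and 76.1 FPKM with IgG against 106 and 103 FPKM with the KIAA1429 antibody. The fitted log2 fold change was 0.53 ± 0.27 with an unadjusted limma p of 0.095 and an adjusted p of 0.997. PSMB5 carries the chymotrypsin-like site, the main target of bortezomib, and was at 37.5 and 36.2 FPKM in the controls, compared with 54.3 and 44.2 FPKM in KIAA1429 RIP. PSMB7 carries the trypsin-like site, and was at 67.7 and 53.0 FPKM in the IgG libraries against 88.8 and 78.4 FPKM with KIAA1429. PSMB1, another structural subunit, was at 53.2 and 70.7 FPKM with IgG against 101 and 72.4 FPKM with the KIAA1429 antibody, where IgG RIP replicate 2 and KIAA1429 RIP replicate 2 were close together.

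The third peptidase went against the other two. PSMB6 (chr17:4699439-4701798, plus strand), which carries the caspase-like site, was at 85.2 and 74.1 FPKM in the controls, compared with 56.6 and 46.4 FPKM in KIAA1429 RIP. Both KIAA1429 RIP libraries were below both IgG RIP libraries, and the log2 fold change was -0.62 ± 0.29 with an unadjusted limma p of 0.066 and an adjusted p of 0.997. It has a single listed transcript, so its value does not depend on how transcripts were summed.

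PSMB3 (chr17:36908989-36920484, plus strand), a structural subunit, had the highest fitted log2 fold change of the 45 genes, 0.97, and also the largest standard error, 0.72. Its gene totals were 90.4 and 15.9 FPKM in the IgG libraries against 64.6 and 89.2 FPKM with KIAA1429. The IgG RIP replicates were 5.67-fold apart and enclosed both KIAA1429 RIP libraries. Without IgG RIP replicate 2 the log2 fold change was -0.25, so the value rested on that library.

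The inducible beta subunits PSMB8 and PSMB9, which replace PSMB5 and PSMB6 in the immunoproteasome, were present at levels near 30 FPKM with overlapping groups. PSMB9 was at 31.5 and 33.3 FPKM with IgG against 33.1 and 38.7 FPKM with the KIAA1429 antibody, a log2 fold change of 0.14 ± 0.29. PSMB8 was at 20.8 and 34.0 FPKM in the controls, compared with 29.7 and 34.5 FPKM in KIAA1429 RIP, a log2 fold change of 0.26 ± 0.35. On the FPKM scale, which divides by transcript length, PSMB9 stood at 0.37 and 0.45 times the level of PSMB6 in the controls. With KIAA1429 it stood at 0.58 and 0.83 times, without overlap between groups. PSMB6, the denominator, was itself lower in KIAA1429 RIP without overlap (log2 fold change -0.62), so the ratio is not a result separate from PSMB6. The exact permutation test of this ratio gave p = 0.333, two-sided, the smallest value that 2 against 2 libraries allow. The ratio of PSMB8 to PSMB5 was 0.56 and 0.94 in the controls against 0.55 and 0.78 with KIAA1429, with overlap. PSMB8 overlaps the antisense RNA PSMB8-AS1, which was at 0 in 3 libraries and at 1.62 FPKM in KIAA1429 RIP replicate 2. Whether the quantification used strand is not given in the sources used here.

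**Figure D2:**
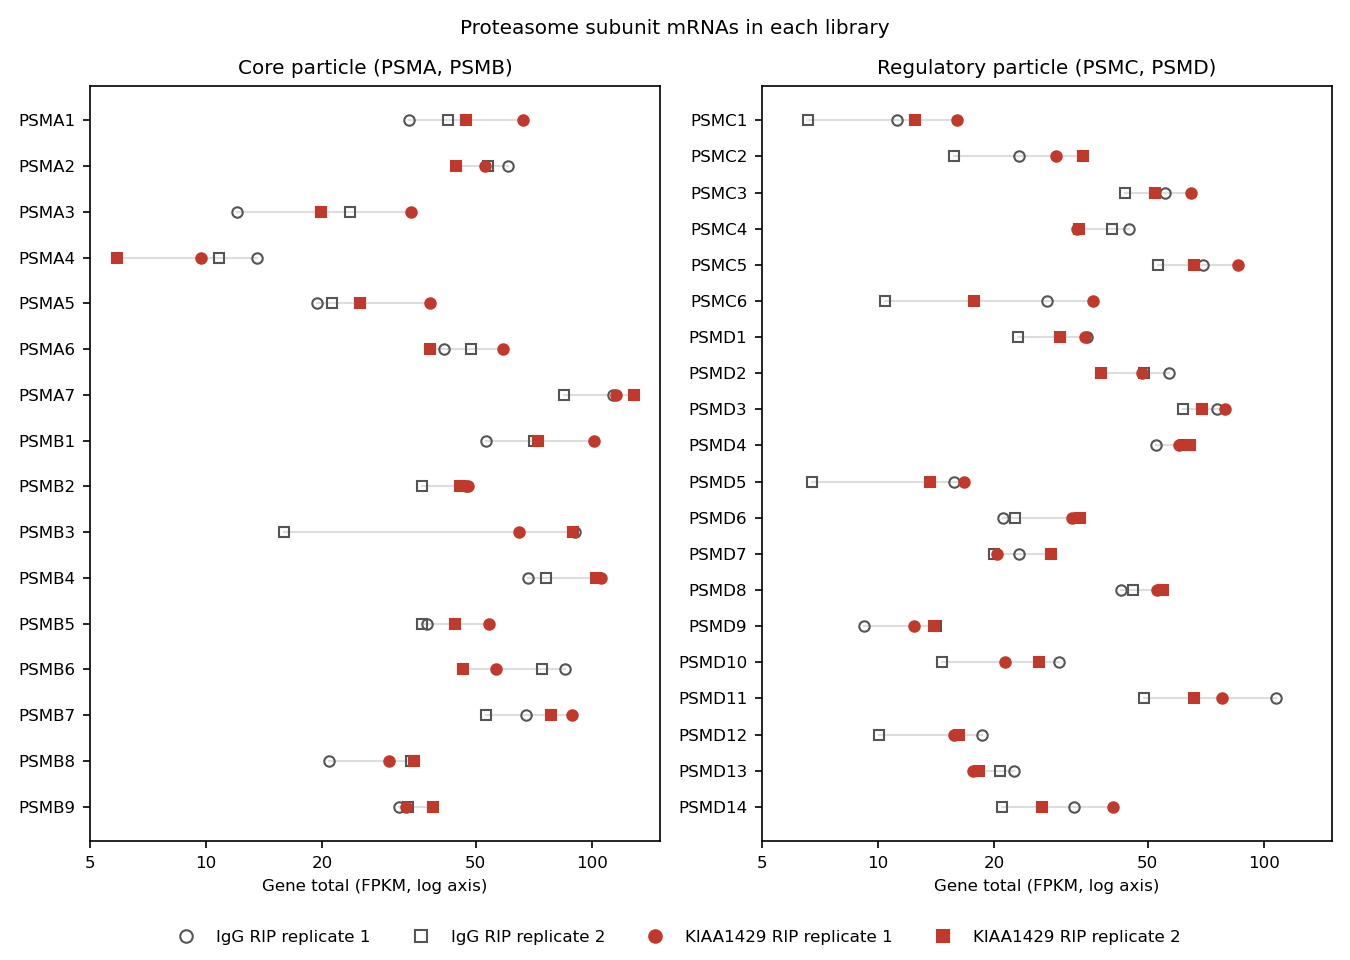
Gene totals of the 16 core particle genes (left) and 20 regulatory particle genes (right) in each library, in FPKM on a log axis. Open symbols are IgG RIP and filled symbols KIAA1429 RIP, circles replicate 1 and squares replicate 2. PSMB6 and PSMC4 show both filled symbols to the left of the open ones, PSMB4 and PSMD6 show them to the right, and the widest spread is that of PSMB3, from IgG RIP replicate 2.

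Of the 6 ATPases that form the unfolding ring, 5 had a positive fitted fold change, with a median of 0.43 on the log2 scale, and PSMC1 and PSMC2 were higher without overlap. PSMC2 (chr7:102984713-103009842, plus strand) was at 23.2 and 15.7 FPKM in the IgG libraries against 28.996 and 33.9 FPKM with KIAA1429. In limma its log2 fold change was 0.69 ± 0.33 with an unadjusted limma p of 0.079 and an adjusted p of 0.997. PSMC1 was lowest in IgG RIP, at 11.2 and 6.59 FPKM, against 16.1 and 12.5 FPKM in KIAA1429 RIP, and its log2 fold change was 0.66 ± 0.40. PSMC5 had the highest mean of the ATPases, with overlapping values of 69.7 and 53.0 FPKM with IgG against 85.7 and 65.7 FPKM with the KIAA1429 antibody.

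PSMC4 (chr19:40476912-40487348, plus strand) was the ATPase on the lower side. Its KIAA1429 RIP libraries were nearly equal, at 32.8 and 33.2 FPKM, and below the IgG RIP libraries, at 44.7 and 40.3 FPKM. The log2 fold change was -0.35 ± 0.28. PSMC6 was the most variable ATPase, with 27.3 and 10.4 FPKM in the controls, compared with 36.1 and 17.8 FPKM in KIAA1429 RIP, replicate 1 being the higher library in both groups.

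The 14 non-ATPase genes had the median log2 fold change closest to 0 of the roles, 0.17. Groups overlapped for 10 of the 14, beside 7749 of all 11361 gene totals. PSMD6 (chr3:63996225-64009236, minus strand), a lid subunit, had the highest fitted value. It was at 21.1 and 22.7 FPKM in the IgG libraries against 31.8 and 33.5 FPKM with KIAA1429, so each group was tight and the groups were apart. The log2 fold change was 0.56 ± 0.29, with an unadjusted limma p of 0.1001 and an adjusted p of 0.997. PSMD8, another lid subunit, was at 42.5 and 45.7 FPKM with IgG against 52.8 and 54.7 FPKM with the KIAA1429 antibody, a log2 fold change of 0.28 ± 0.28.

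PSMD2 (chr3:184016497-184026842, plus strand), a scaffold that docks ubiquitin shuttles, was at 56.7 and 48.9 FPKM in the controls, compared with 48.3 and 37.8 FPKM in KIAA1429 RIP. Its log2 fold change, -0.29 ± 0.29, was the lowest of the non-ATPase genes. PSMD13, a lid subunit, was at 22.6 and 20.6 FPKM in the IgG libraries against 17.6 and 18.3 FPKM with KIAA1429, a log2 fold change of -0.25 ± 0.31. PSMD11, also a lid subunit, had the highest mean of the PSMD genes and the widest spread in FPKM. It was at 108 and 48.9 FPKM with IgG against 78.0 and 66.0 FPKM with the KIAA1429 antibody, so the control libraries enclosed the others and the log2 fold change was -0.02 ± 0.41. The deubiquitinase PSMD14 and the ubiquitin receptor PSMD4 had overlapping groups, with log2 fold changes of 0.33 ± 0.37 and 0.12 ± 0.28. The base assembly chaperones PSMD5, PSMD9 and PSMD10 also overlapped. PSMD5 lies next to PSMD5-AS1 on the opposite strand, without overlap by the deposited coordinates. PSMD5-AS1 was at 0.044 and 5.77 FPKM in the controls, compared with 3.62 and 12.5 FPKM in KIAA1429 RIP.

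Core and regulatory particle differed little in how far they stood above IgG. Added over its 16 genes, the core particle amounted to 796 and 715 FPKM in the IgG libraries against 957 and 861 FPKM with KIAA1429, both above both controls. This was a 1.204-fold higher mean and a log2 difference of 0.27 ± 0.15 (combined SD, n = 2). The combined SD is the square root of the summed variances of the groups. The two-sided exact permutation test gave p = 0.333, the smallest the design allows. These sums were not scaled between libraries. The listed FPKM of the whole library were also higher in both KIAA1429 RIP libraries (337041 and 340300) than in both IgG RIP libraries (295573 and 315446). Added over its 20 genes, the regulatory particle amounted to 774 and 590 FPKM with IgG against 794 and 714 FPKM with the KIAA1429 antibody. Here the groups overlapped, with a log2 difference of 0.16 ± 0.30 (combined SD, n = 2, exact permutation p = 0.667). Without IgG RIP replicate 2 the difference was -0.04. In that library 16 of the 20 regulatory genes were below IgG RIP replicate 1, but 8 of the 16 core genes were.

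The ratio of the core sum to the regulatory sum was 1.03 and 1.21 in the controls, and 1.21 in each KIAA1429 RIP library. IgG RIP replicate 1 was therefore the only library apart from the rest. The log2 difference of the ratio was 0.11 ± 0.17 (combined SD, n = 2, exact permutation p = 1). Without IgG RIP replicate 1 it was -0.01. A ratio of medians gave no clearer order, since the median core gene stood at 1.44 and 1.80 times the median regulatory gene in the controls and at 1.65 and 1.43 times with KIAA1429. All 45 genes together made up between 0.469% and 0.595% of the listed FPKM of a library, and both of these extremes were IgG RIP libraries.

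**Figure D3:**
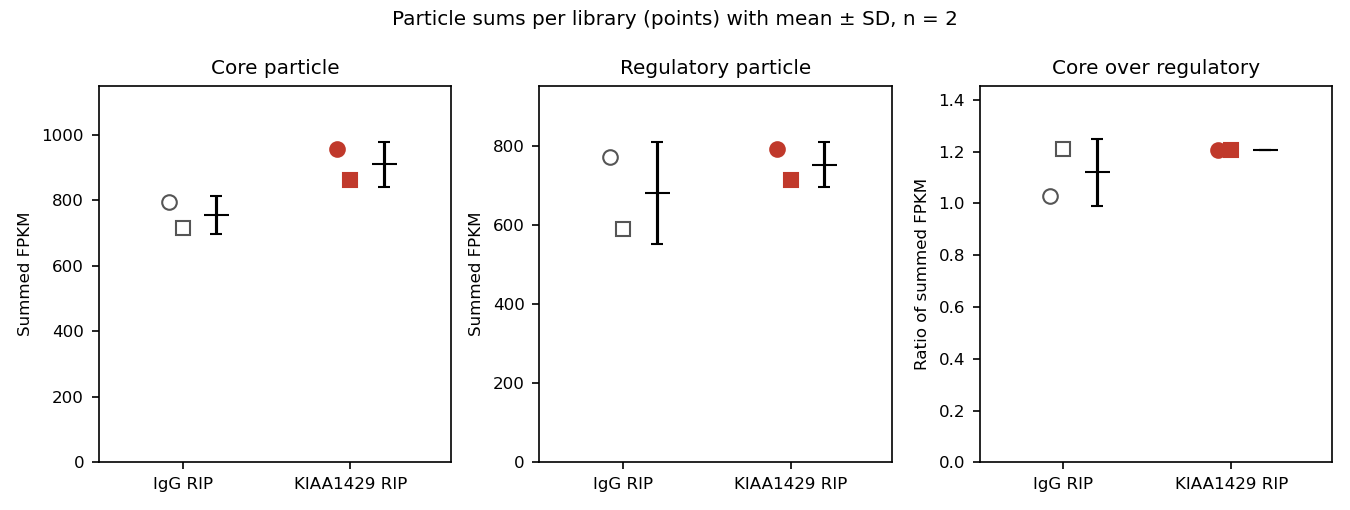
Summed FPKM of the core particle genes and of the regulatory particle genes, and the ratio of the sums, in each library (open IgG RIP, filled KIAA1429 RIP, circles replicate 1, squares replicate 2), with the mean and SD of 2 libraries beside them. The core sums of the groups do not overlap, the regulatory sums do, and the ratio differs from the other libraries in IgG RIP replicate 1.

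The activators of the core gave both members with an unadjusted limma p under 0.05, in opposite directions. PSME1 (chr14:24605367-24608176, plus strand) and PSME2 (chr14:24612574-24616430, minus strand) encode the 2 subunits of the PA28 ring that interferon gamma induces. PSME1 was at 14.9 and 24.1 FPKM in the controls, compared with 38.0 and 32.0 FPKM in KIAA1429 RIP. Its log2 fold change was 0.84 ± 0.35, with an unadjusted limma p of 0.046 and an adjusted p of 0.997. PSME2 was at 23.3 and 17.0 FPKM in the IgG libraries against 24.8 and 37.9 FPKM with KIAA1429, where IgG RIP replicate 1 came close to KIAA1429 RIP replicate 1. Added together, the 2 subunits amounted to 38.3 and 41.0 FPKM with IgG against 62.8 and 69.9 FPKM with the KIAA1429 antibody. The sum was tighter between replicates than either gene, with a 1.67-fold higher mean. The log2 difference was 0.74 ± 0.13 (combined SD, n = 2, exact permutation p = 0.333). PSME3, which forms the nuclear PA28 ring, was at 41.8 and 48.5 FPKM in the controls, compared with 50.3 and 64.9 FPKM in KIAA1429 RIP.

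PSME4 (chr2:54091204-54197977, minus strand) encodes PA200, a large single-chain activator of the nucleus that acts without ATP. It was at 21.6 and 15.9 FPKM in the IgG libraries against 10.6 and 7.89 FPKM with KIAA1429, with every KIAA1429 RIP value below every IgG RIP value. The log2 fold change was -0.95 ± 0.37, the lowest of the 45 genes, with an unadjusted limma p of 0.037 and an adjusted p of 0.997. The inhibitor PSMF1 was at 17.8 and 24.5 FPKM with IgG against 16.5 and 18.8 FPKM with the KIAA1429 antibody, with overlap.

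All 4 PSMG chaperones, which pair up to build the alpha ring, had a positive fitted fold change, with a median of 0.49 on the log2 scale. PSMG3 (chr7:1606966-1610641, minus strand) was at 16.3 and 8.32 FPKM in the controls, compared with 20.7 and 22.0 FPKM in KIAA1429 RIP, the one chaperone without overlap. The fitted log2 fold change was 0.81 ± 0.40 with an unadjusted limma p of 0.083 and an adjusted p of 0.997. PSMG4 was the most abundant at 23.7 and 14.3 FPKM in the IgG libraries against 30.5 and 22.3 FPKM with KIAA1429. PSMG1 was at 12.8 and 10.02 FPKM with IgG against 13.0 and 12.04 FPKM with the KIAA1429 antibody.

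Genes that work with the proteasome but lie outside its PSM names were taken from 4 lists with 38 listed genes in all. Of these 0 were called, beside 0.0% of all gene totals, and 29 had a positive fitted fold change, beside 51.4%. The median was 0.14 on the log2 scale. Of the 38 genes, 1 had an unadjusted limma p under 0.05, beside 4.59% of all gene totals. This was POMP, the maturation factor that brings the assembling core particle to completion and is then its first substrate. It was at 20.2 and 16.5 FPKM in the controls, compared with 50.3 and 34.4 FPKM in KIAA1429 RIP. In limma its log2 fold change was 1.15 ± 0.33 with an unadjusted limma p of 0.011 and an adjusted p of 0.993. Among the 12 further subunits and partners, 11 were above 0 and 3 were higher without overlap, one of them SEM1, the smallest lid subunit, at 48.8 and 50.3 FPKM in the IgG libraries against 76.1 and 68.0 FPKM with KIAA1429. Of 12 ubiquitin genes and shuttle factors, 11 were above 0, 3 were higher and 1 was lower without overlap. Among the higher was RPS27A, which encodes ubiquitin fused to a ribosomal protein, at 216 and 386 FPKM in the IgG libraries against 519 and 483 FPKM with KIAA1429. The lower one was the shuttle UBQLN4, at 55.8 and 59.8 FPKM in the controls and 40.8 and 54.8 FPKM with KIAA1429. Of 8 genes of the VCP unfoldase and its cofactors, 5 were above 0, 0 were higher and 1 was lower without overlap. This was FAF1, an adaptor of VCP, at 10.4 and 19.4 FPKM in the controls and 10.1 and 7.78 FPKM with KIAA1429. Of 6 regulators of proteasome gene transcription, 2 were above 0 and 4 below, with 2 higher and 1 lower without overlap. NFE2L1, the factor that raises proteasome genes when the proteasome is inhibited, was at 37.3 and 35.4 FPKM in the controls, compared with 45.6 and 44.8 FPKM in KIAA1429 RIP. NFE2L2, a related factor of the oxidative stress response, was the lower one, at 34.0 and 33.0 FPKM in the controls and 30.05 and 29.7 FPKM with KIAA1429. Over the 38 genes, 8 were higher and 3 lower without overlap, beside the 16.6% and 15.2% of all gene totals.

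Below the gene totals, 129 transcripts of the 45 genes were listed, 112 of the protein-coding type and 17 processed transcripts, and the coding type held from 95.7% to 98.5% of the members' FPKM. At a mean of 1 FPKM or more, 103 of these transcripts were tested and 0 were called by limma, beside 0.0% of the 23375 transcripts tested. An unadjusted limma p under 0.05 was found for 5 of them, beside 5.36% of all transcripts, with a lowest adjusted p of 0.513. A log2 fold change above 1 was fitted for 28 of the 103 and one below -1 for 15, beside 16.6% and 15.9% of all transcripts tested. Within 10 of the 38 genes with 2 or more listed transcripts, both directions occurred. How often this happened over all genes was not counted. The gene totals of PSMC3 and PSMD8, whose transcripts are described next, had log2 fold changes of 0.24 and 0.28. Reads that fit several transcripts of a gene are divided by the quantification, and the part of that division in these opposite changes was not tested.

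In PSMC3 (chr11:47440320-47448024, minus strand), an ATPase, the transcript PSMC3-213 was at 2.82 and 3.24 FPKM in the IgG libraries against 21.1 and 38.6 FPKM with KIAA1429. It made up 6.11% of the gene's mean in IgG RIP and 51.0% in KIAA1429 RIP. Its log2 fold change was 2.88 ± 0.46 with an unadjusted limma p of 0.0020 and an adjusted p of 0.513. PSMC3-201 was at 39.1 and 24.5 FPKM with IgG against 25.8 and 3.96 FPKM with the KIAA1429 antibody. The gene total overlapped between groups, at 55.4 and 43.7 FPKM against 64.7 and 52.4 FPKM. In GENCODE release 44 the 1580 bases of PSMC3-213 contain the 1540 bases of PSMC3-201 whole. By the coordinates of the deposited files, PSMC3-213 begins 36 bases further upstream and both end at the same base.

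In PSMD8 (chr19:38865176-38874464, plus strand), PSMD8-201 was at 14.01 and 9.01 FPKM in the controls, compared with 40.1 and 28.9 FPKM in KIAA1429 RIP. PSMD8-209 was at 11.6 and 23.6 FPKM in the IgG libraries against 0.122 and 3.07 FPKM with KIAA1429. The log2 fold changes were 1.51 ± 0.40 and -3.04 ± 0.81, each with an unadjusted limma p of 0.015 and an adjusted p of 0.806. Here too the shorter transcript lies whole inside the longer one in GENCODE release 44, and by the deposited coordinates PSMD8-201 begins 223 bases further upstream with the same end. The annotated coding lengths were 1050 and 861 bases, and the 2 start codons are shown because they mark the difference between the annotated proteins. The lines give the first 30 coding bases from the GRCh37 genome, plus strand, at chr19:38865242-38865271 and chr19:38865431-38865460, with the start codon in capitals.
PSMD8-201: ATGttcattaagggcagggctccgagggcg
PSMD8-209: ATGgcggccgcggcggtgaacggggcggca

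PSMD10 encodes gankyrin, an assembly chaperone of the base first described as an oncoprotein of hepatocellular carcinoma. Its gene total (chrX:107327437-107334848, minus strand) was 29.5 and 14.6 FPKM with IgG against 21.3 and 26.2 FPKM with the KIAA1429 antibody, with overlap. The transcript PSMD10-204 was listed at 0 in both IgG RIP libraries and at 7.02 and 3.73 FPKM in KIAA1429 RIP, 22.6% of the gene's mean there, with an unadjusted limma p of 0.015 and an adjusted p of 0.806. In the annotation it lacks 79 bases at the end of the fourth exon, and its annotated coding length is 453 bases against 678 in PSMD10-201. The lines show this point in both transcripts, in GRCh37, minus strand. The shared 15 bases of the fourth exon (chrX:107330995-107331009) are in lower case and the 15 bases that follow in each transcript in capitals, from chrX:107328343-107328357 in PSMD10-204 and within chrX:107330980-107331009 in PSMD10-201.
PSMD10-204: gggcagcagccaaggACACTTAGCCTGTGA
PSMD10-201: gggcagcagccaaggGTAACTTGAAGATGA

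The fifth transcript was PSMC6-218, of the ATPase PSMC6, at 7.92 and 9.78 FPKM in the controls, compared with 3.10 and 3.20 FPKM in KIAA1429 RIP. The fitted log2 fold change was -1.24 ± 0.45 with an unadjusted limma p of 0.041 and an adjusted p of 0.879.

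The m6A methyltransferase complex acts on adenosines in a short sequence context, of which GGACT is the classical strong form, and KIAA1429 is known for directing it to the region of the stop codon and the 3′ UTR. GGACT was therefore searched on the transcript strand within 200 bases on each side of the end of the coding sequence, in the most abundant coding transcript of each gene. The transcript models were those of GENCODE release 44, whose ends are not always those of the deposited files. Only full windows that lie inside the deposited start and end were used. Transcripts with a 3′ UTR too short to fill the window, such as that of PSMB6 with 73 bases, were therefore not searched. GGACT was present in 7 of the 28 members with such a window, or 25.0%, and in 3446 of the 9024 windows of all gene totals, or 38.2%. Among the members it was present in 0 of 7 core windows and in 5 of 14 regulatory windows (35.7%). A match describes the sequence and does not show that the site is methylated or bound. Across the 45 members, Spearman's rho between GGACT per kilobase of annotated transcript and the log2 fold change was -0.05. It was also -0.05 over the 10585 gene totals with an annotated coding transcript. The points of each rho share the same 4 libraries.

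Matches were found in 4 of the genes whose groups did not overlap, and these windows are shown to place the motif beside the direction of the gene. Each line gives 29 bases of the transcript with GGACT in capitals. In PSME4 the motif lies in the coding sequence, its adenosine 95 bases before the last coding base, at chr2:54093310-54093338, minus strand. In PSMD13 it lies in the 3′ UTR, 154 bases after the last coding base, at chr11:252737-252765, plus strand. Both of these genes were lower in KIAA1429 RIP. PSMD8 (chr19:38874095-38874123, plus strand) and PSMG3 (chr7:1607256-1607284, minus strand), which were higher, hold it in the 3′ UTR, 82 and 67 bases after the last coding base. These directions are those of the gene totals. PSME4-202 and PSMD8-201 went with their genes without overlap. PSMG3-202 hardly differed, at 8.38 and 8.32 FPKM with IgG against 8.38 and 8.88 FPKM with KIAA1429. PSMD13-212 overlapped, at 22.6 and 16.6 FPKM with IgG against 10.6 and 18.3 FPKM with KIAA1429. The motif thus lay in 2 genes of each direction, out of 15 higher and 7 lower genes, of which not all could be searched. On the lower side PSMB6, PSMC4 and PSMD2 had no window. On the higher side PSMA7, PSMB1, PSMB4, PSMB7, PSMD6, PSME2 and PSME3 had none.
PSME4-202: ccaatttccgaaGGACTcaccatgacaac
PSMD13-212: gctctaaaaacaGGACTgtccctgatggg
PSMD8-201: cccaataaaggtGGACTgacattccctct
PSMG3-202: acacccactcagGGACTcaagtctcacct

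Shorter transcripts had higher fold changes in the data as a whole. The most abundant coding transcript of a member had a median annotated length of 1518 bases, beside 3082 bases for all gene totals, and the core genes were shorter than the regulatory genes, with medians of 1020 and 1692.5 bases. Spearman's rho between length and log2 fold change was -0.35 over the 45 members and -0.23 over the 10585 gene totals. It was -0.31 over the 16 core genes and near 0 (-0.003) over the 20 regulatory genes. Gene totals with a transcript under 1000 bases had a median log2 fold change of 0.37, and 71.5% of them were above 0. The 9 members of that length had a median of 0.48, with 8 above 0. Between 1000 and 2000 bases the medians were 0.13 over all gene totals and 0.26 over 21 members. From 2000 to 4000 bases they were 0.03 and 0.19, over 9 members, and from 4000 bases on they were -0.08 and -0.03, over 6 members. PSMB3 (762 bases) and PSMB6 (824 bases) were both short, the first on the higher and the second on the lower side, and PSME4, on the lower side, was annotated at 7250 bases. The annotated and the deposited ends differed by more than 100 bases in all for 17 of the 45 members. Over the other 28 rho was -0.18 (-0.54 over 11 core genes and 0.24 over 14 regulatory genes), whereas over the 7539 gene totals with such ends it was -0.22. The part of length in the fold changes was not tested.

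The replicates showed how much of these differences the libraries themselves carry. The 2 IgG libraries differed 1.32-fold for the median member, and the 2 KIAA1429 libraries 1.22-fold. A gap of at least 2-fold was seen for 5 members in IgG RIP and for 2 in KIAA1429 RIP. IgG RIP replicate 1 was above replicate 2 for 30 of the 45 members. Spearman's rho over the 45 gene totals was 0.80 within IgG RIP, 0.91 within KIAA1429 RIP, and from 0.84 to 0.88 for pairs of libraries of different groups, so the controls were no more alike among themselves than they were like the KIAA1429 RIP libraries.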

How the data were processed

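RIP-seq was analysed in 4 libraries, 2 IgG RIP and 2 KIAA1429 RIP, grouped by the labels. The authors deposited 1 table per library of FPKM per transcript, with gene names and GRCh37/hg19 coordinates. The study's methods name HISAT2 and the submitters' processing notes name Bowtie2 (version 2.1.0); the program that computed FPKM, its handling of strand and its handling of reads shared with pseudogenes or between transcripts are not given in the sources used here. Every listed transcript had a mean of at least 0.5001 FPKM in one group, so the tables had been filtered. Whole reads could not be recovered, so no count test was possible and depth is unknown.

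FPKM were added per gene name, and the 11361 gene totals with a mean of at least 1 FPKM were fitted as log2(total + 1) with limma 3.58.1 (lmFit, eBayes with trend) in R 4.3.3, two-sided, with Benjamini-Hochberg adjustment over all of them. Calls used the study's thresholds (adjusted p under 0.05, log2 fold change beyond 1), but the study's count model could not be applied to FPKM. No scaling between libraries was added. The log2(FPKM + 1) scale understates changes of low genes. Sums and ratios were compared by the two-sided exact permutation test, which over 2 against 2 libraries cannot go below 0.333. The combined SD printed with a sum or ratio is the square root of the summed variances of its log2 values in the 2 groups. It is larger than the SE of the difference of the group means. Alternatives were other pseudocounts (0.1 and 0.01), filters, scalings, a replicate block, single transcripts and leaving out each library.

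Sequences, lengths and strands came from the GRCh37 genome with GENCODE release 44 lifted to it; the release behind the files is not given, and the ends of 4 of the 45 members' transcripts were the same in both. The genes named in full were the highest and the extremes of each role, those without overlap and those with an unadjusted p under 0.05; a few others were named after their values were seen. The members and the lists were chosen with earlier results of these data known. Values of a few genes of the lists are not reported here.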

Additional observations from a re-analysis of the deposited data

How the results depend on the processing

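The number of proteasome genes, pathway genes and member transcripts called stayed at 0 under every alternative run: pseudocounts, filters, median and quantile scaling, limma without trend, coding transcripts only, the most abundant transcript (gene totals only), the replicate block and leaving out each library. The core sum stayed above IgG on average in each alternative run for it, with log2 differences between 0.17 and 0.35. Scaling to the summed FPKM of a library was not among them. Leaving out each library in turn, the regulatory sum ranged from -0.040 to 0.35 and the core to regulatory ratio from -0.0063 to 0.23, and with the median of log2(subunit total + 1) in place of sums the ratio was -0.058. With 1 library left out, the count of members without overlap ranged from 19 to 31 on the higher side (from 29.4% to 40.2% of all gene totals). On the lower side it ranged from 8 to 12 (from 29.3% to 37.8% of all gene totals). With the most abundant transcript 10 members were higher (22.2%, beside 16.6% of all gene totals) and 4 lower (8.89%, beside 14.4%). With quantile normalization 13 were higher (28.9%, beside 15.6%) and 7 lower (15.6%, beside 17.0%). With median scaling 18 were higher (40.0%, beside 16.6%) and 7 lower (15.6%, beside 15.7%). With 1 library left in a group, limma takes its spread from the other group.

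Of 630 values of single members under alternatives, 25 changed sign. With the most abundant transcript the log2 fold change was 0.15 for PSMA4, -0.22 for PSMA6, -1.47 for PSMC3, -0.36 for PSMD9, -0.20 for PSMD10, 0.081 for PSMF1 and -0.029 for PSMG2, and with quantile normalization it was -0.0029 for PSMA6. Leaving out 1 library, the ranges that crossed 0 were -0.23 to 0.39 for PSMA6, -0.023 to 0.35 for PSMB2, -0.25 to 2.18 for PSMB3, -0.082 to 0.60 for PSMB8, -0.10 to 1.21 for PSMC6, -0.12 to 0.46 for PSMD1, -0.029 to 0.26 for PSMD3, -0.055 to 1.06 for PSMD5, -0.078 to 0.37 for PSMD7, -0.10 to 0.47 for PSMD9, -0.31 to 0.66 for PSMD10, -0.58 to 0.55 for PSMD11, -0.21 to 0.62 for PSMD12, -0.030 to 0.29 for PSMG1 and -0.0090 to 0.99 for PSMG2. The cause was not tested. Of the 22 members without overlap, 0 changed sign except PSMA4 with its most abundant transcript.

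The replicate numbers are shared by both groups, but no label says that they mark a shared culture or day, and the deviations of same-numbered libraries correlated at 0.19 over all gene totals and -0.04 over the members (-0.56 over the core and 0.50 over the regulatory genes). With the replicate number as a block, 0 members and 0 pathway genes were called, with 5 members (11.1%) at an unadjusted limma p under 0.05, beside 9.03% of all gene totals, and a lowest adjusted p of 0.404, and 13 of all gene totals were called. The core sum, the regulatory sum and their ratio had log2 differences of 0.27, 0.16 and 0.11 within pairs.

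Leaving out PSMB3 or PSMD11, alternatives chosen after seeing the data, kept the direction of the sums and the ratio. FPKM keeps no depth, so low totals have no counting interval, and 2 libraries per group limit every test here.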
